A study of Homo sapiens with 4 samples.

Results

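The HOX genes encode homeodomain transcription factors, and 38 of them, with the antisense transcripts of their clusters, are described here from lists of open-chromatin peaks. A peak was taken as a HOX peak if the nearest gene named for it by the authors was one of the 38 members or an antisense transcript such as HOTAIR, HAGLR or a name of the form HOXA-AS2. By that rule 112 of the 192435 peaks in the 4 lists were HOX peaks, 28 in shARID1A rapamycin, 30 in shARID1A DMSO, 28 in shControl rapamycin and 26 in shControl DMSO. The members are 10 HOXA genes on chromosome 7, 10 HOXB genes on chromosome 17, 9 HOXC genes on chromosome 12 and 9 HOXD genes on chromosome 2. No filter on low values was applied, so every member is accounted for.

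As background, HOX genes tell cells where they lie along the head-to-tail axis of the embryo, and adult cells keep part of that pattern. Genes with low numbers lie at the 3' end of a cluster and act towards the head, and genes with high numbers lie at the 5' end and act towards the tail and the limb ends. Polycomb complexes keep whole stretches of a cluster closed, KMT2 (Trithorax-type) complexes keep others active, and BAF, the remodeller that contains ARID1A, is known to counter Polycomb. Liver cancer cells often express HOX genes that the adult liver does not use.

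ATAC-seq, which cuts and tags accessible DNA with a transposase, was done on nuclei of Huh7, an established human liver cancer line. The groups were cells with a short hairpin RNA against ARID1A (shARID1A) given 100 nM rapamycin for 6 h, shARID1A cells in DMSO, control-hairpin cells (shControl) given rapamycin at that dose and time, and shControl cells in DMSO. Rapamycin inhibits the growth kinase complex mTORC1. Each group was 1 library of 50000 cells, so there is no spread between replicates, no test, and no p-value, and all differences are between single libraries.

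Peak lists held 44760 peaks in shARID1A rapamycin, 45700 in shARID1A DMSO, 49783 in shControl rapamycin and 52192 in shControl DMSO, and the read depth behind them is unknown. Peak numbers were skipped in the shARID1A DMSO list (6666 numbers, 12.7%) and in the shControl rapamycin list (1093 numbers, 2.15%). No HOX peak called lost or gained below lay at a place where the other list skipped a number, but the shARID1A DMSO list skipped numbers at HOXB1, HOXB2, HOXB4 and HOXB9, so its lack of a peak there is less certain. The lists measure chromatin and not RNA, so the extent of the ARID1A knockdown was not measured here. In these bulk libraries, a site open in fewer cells and a site less open in all cells cannot be told apart. Of 12 liver marker genes, 7 had a promoter peak in every list, among them HNF4A, FOXA1, CEBPA and APOB, whereas ALB and AFP had none in any. None of 4 endothelial markers had one, and 1 or 2 of 5 leukocyte, 2 or 3 of 5 fibroblast and 2 or 3 of 4 neuronal markers did, of which LYZ, COL1A2, SYT1 and SNAP25 had one in every list.

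Promoter sequences are shown for the strongest promoter of each cluster that had one in every list (HOXA4, the start shared by HOXC4, HOXC5 and HOXC6, and HOXD1) and for 2 promoters with no peak in any list (HOXD8, rich in CpG, and HOXB1, poor in CpG). Each is the RefSeq GRCh38.p14 window of 300 bases on the gene's own strand, and capitals mark CpG dinucleotides, where vertebrate DNA is methylated and, in unmethylated islands, Polycomb and KMT2 complexes bind.
HOXA4, minus strand, chr7:27130708-27131007: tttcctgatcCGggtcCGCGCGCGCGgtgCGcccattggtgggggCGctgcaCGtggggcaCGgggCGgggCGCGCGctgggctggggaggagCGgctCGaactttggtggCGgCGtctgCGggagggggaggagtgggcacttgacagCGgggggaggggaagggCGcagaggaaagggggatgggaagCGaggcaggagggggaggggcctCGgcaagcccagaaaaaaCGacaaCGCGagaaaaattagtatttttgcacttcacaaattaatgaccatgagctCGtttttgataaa
HOXC5, plus strand, chr12:54016638-54016937: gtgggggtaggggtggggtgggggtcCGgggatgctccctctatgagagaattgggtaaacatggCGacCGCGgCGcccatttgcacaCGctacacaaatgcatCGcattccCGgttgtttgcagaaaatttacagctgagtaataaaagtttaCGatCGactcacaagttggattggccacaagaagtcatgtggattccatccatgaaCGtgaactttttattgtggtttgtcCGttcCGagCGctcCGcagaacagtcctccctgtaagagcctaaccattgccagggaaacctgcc
HOXD1, plus strand, chr2:176188418-176188717: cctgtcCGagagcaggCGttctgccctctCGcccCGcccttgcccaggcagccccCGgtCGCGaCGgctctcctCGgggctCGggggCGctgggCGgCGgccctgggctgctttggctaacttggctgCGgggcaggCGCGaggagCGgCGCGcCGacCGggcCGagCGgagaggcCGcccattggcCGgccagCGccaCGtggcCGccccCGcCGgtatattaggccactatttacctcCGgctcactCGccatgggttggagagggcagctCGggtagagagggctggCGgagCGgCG
HOXD8, plus strand, chr2:176129455-176129754: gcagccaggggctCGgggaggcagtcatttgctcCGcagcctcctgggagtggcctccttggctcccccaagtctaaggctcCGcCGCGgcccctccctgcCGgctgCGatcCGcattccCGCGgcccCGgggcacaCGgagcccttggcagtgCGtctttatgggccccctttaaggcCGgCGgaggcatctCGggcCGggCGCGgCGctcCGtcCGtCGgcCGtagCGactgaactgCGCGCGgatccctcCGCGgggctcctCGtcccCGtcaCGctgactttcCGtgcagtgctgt
HOXB1, minus strand, chr17:48530962-48531261: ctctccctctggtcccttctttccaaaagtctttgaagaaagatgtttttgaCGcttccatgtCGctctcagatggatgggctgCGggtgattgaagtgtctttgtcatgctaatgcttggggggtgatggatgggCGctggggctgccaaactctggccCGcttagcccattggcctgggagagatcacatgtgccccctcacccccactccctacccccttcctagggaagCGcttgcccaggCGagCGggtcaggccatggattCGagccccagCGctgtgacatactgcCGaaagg
The windows held 27 CpG in HOXA4, 15 in HOXC5, 36 in HOXD1, 34 in HOXD8 and 11 in HOXB1, where the median of 22197 windows of protein-coding genes was 21. A dense CpG window was therefore seen both with a peak in every list (HOXD1) and with none (HOXD8). The HOXC5 window, with fewer CpG than the median, met the edge of a strong peak. That peak region (chr12:54016728-54018389) lies mostly outside the window, so the window's CpG count is not that of the peak.

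Promoter windows in the RefSeq table matched 20 of the 38 members, with 27 windows. Among windows with at least the median number of CpG, a peak of every list overlapped 7 of 15 HOX windows, against 79.3% of all 11278 such windows. Among windows with fewer CpG, it was 4 of 12 HOX windows, against 29.2% of all 10919. The HOX windows with a peak in every list had a median of 25 CpG, and the 14 with a peak in none had 20.5. The windows of HOXC4 and HOXC5 are the same stretch and count in both. The other HOX windows with fewer CpG and a peak in every list are both of HOXA3 and lie in the same peak region (chr7:27122095-27123373). Those 4 windows thus stand for fewer separate peaks. Motifs were searched on both strands by their letters. The TEAD motif GGAATG was in 8 of 27 HOX windows (12.2% of all windows), the core of the CTCF motif in 1, that of HOXA10 (2.52% of all), the AP-1 motif TGANTCA in none (6.15% of all), and the HOX-with-PBX motif TGATNNAT in 3, those of HOXA2, HOXB1 and HOXD11 (5.21% of all).

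Close to 1 in 2 HOX members had a promoter peak at the 1 kb width used here, a smaller share than among protein-coding genes. A member was counted as having a promoter peak if a peak was centred within 1 kb of one of its transcription start sites (TSS), taken from RefSeq and from the authors' distances, whatever gene the peak was named for. By this count 19 of 38 members had a promoter peak in shARID1A rapamycin and 18 in each of the other 3 lists. With RefSeq TSS alone it was 18 in every list, or 47.4%. The share among 15843 protein-coding genes was 66.6% in shARID1A rapamycin, 67.4% in shARID1A DMSO, 66.9% in shControl rapamycin and 66.4% in shControl DMSO. These are the genes with a RefSeq promoter window, counted from the starts of those windows. Members were counted from the 5' end of the RefSeq gene too, the only RefSeq start of the 18 members with no window. The member and protein-coding shares therefore do not rest on the same kind of starts. Over the 4 lists, 15 members had a promoter peak in all, 8 in some and 15 in none. Counted only from peaks named for the member itself, the numbers were 13, 12, 13 and 12, since a HOX promoter peak was often named for a neighbouring noncoding gene. Members differ in their number of annotated starts, from 1 for most HOXB genes to 8 for HOXA3, and a gene with more starts had more chances to meet a peak.

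**Figure D1:**
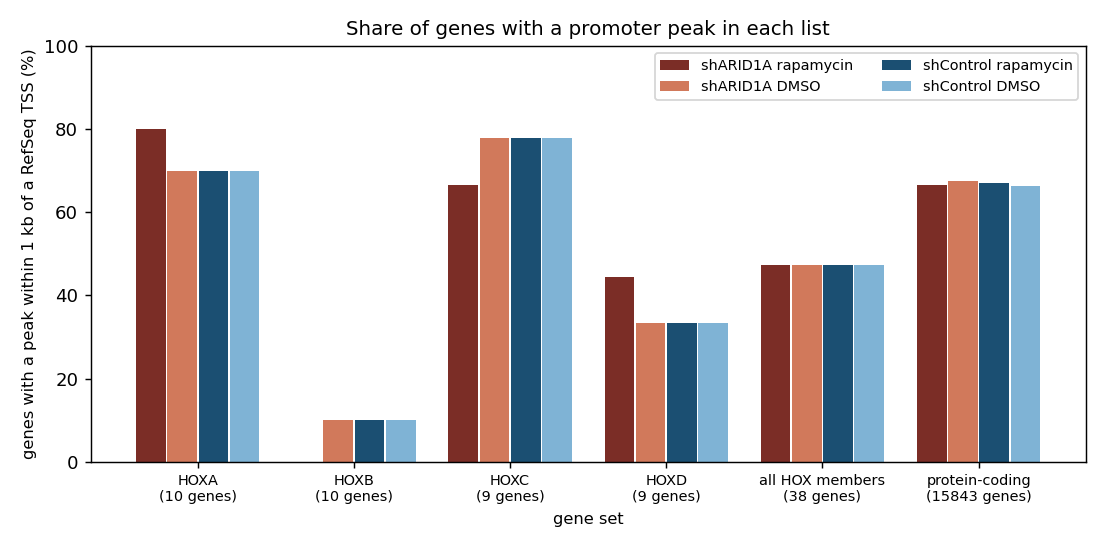
Share of genes (%, vertical axis) with a peak within 1 kb of a RefSeq TSS, for each HOX cluster, all 38 HOX members and 15843 protein-coding genes, with 1 bar per list and no error bars since each is 1 library. HOXB stands at 0 to 10%, HOXA at 70 to 80%, and all HOX members at 47.4% in every list, under the 66.4 to 67.4% of protein-coding genes. Protein-coding genes were counted from the starts of their promoter windows, and members also from the 5' end of the RefSeq gene.

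The clusters differed. In HOXA 6 of 10 members had a promoter peak in every list, in HOXC 6 of 9, in HOXD 3 of 9 and in HOXB 0 of 10. In the HOXC count HOXC4, HOXC5 and HOXC6 enter separately, though they share a RefSeq start and its peak. Peaks of any name covered 14.5% of the 99.4 kb HOXA span in shARID1A rapamycin, 15.7% in shARID1A DMSO, 15.0% in shControl rapamycin and 13.7% in shControl DMSO. HOXB, the longest span at 199.7 kb, was covered by 1.56% in shARID1A rapamycin, 1.75% in shARID1A DMSO, 2.14% in shControl rapamycin and 2.08% in shControl DMSO. The 117.1 kb of HOXC had 9.48 to 11.5% covered over the lists, and the 103.2 kb of HOXD 5.27 to 7.10%. In every list the order of coverage was HOXA, HOXC, HOXD and HOXB.

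**Figure D2:**
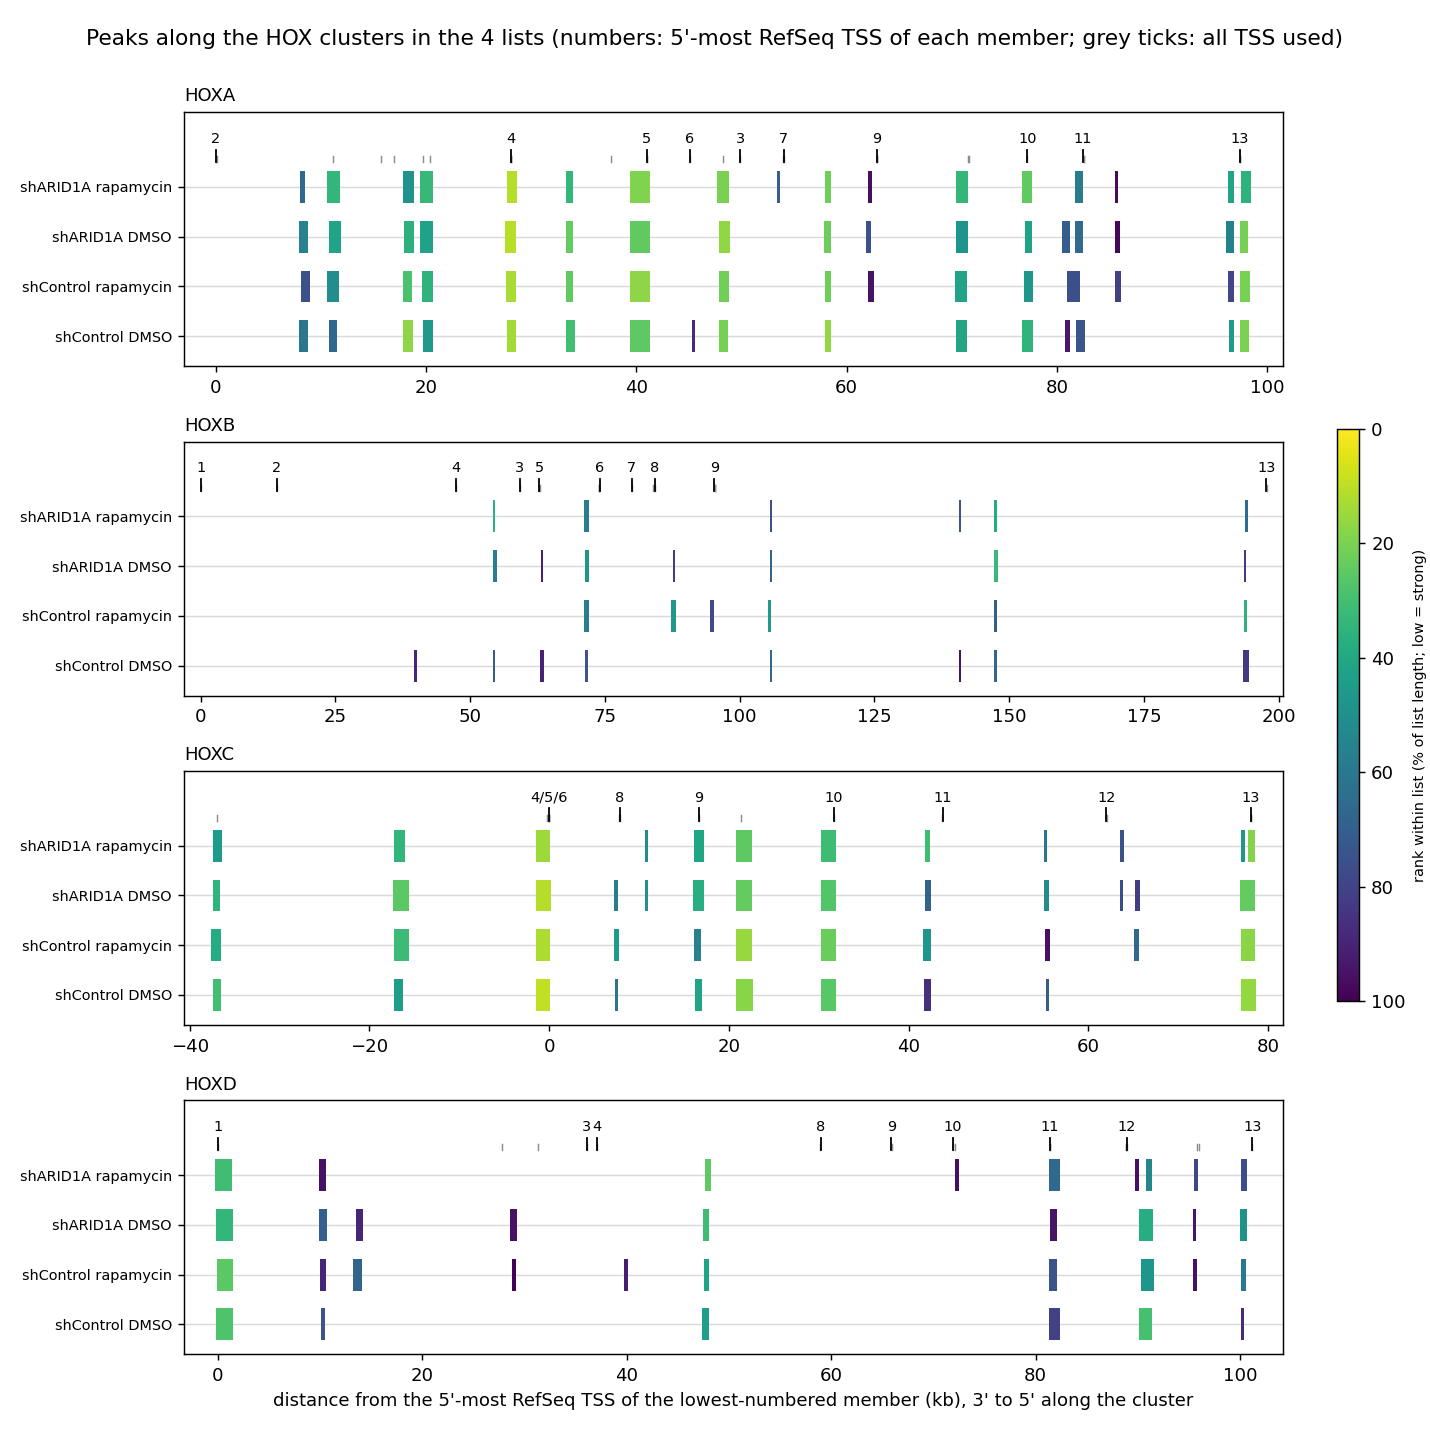
Peaks (boxes) along each cluster in the 4 lists, with distance in kb on the horizontal axis, the 3' end of the cluster at the left, and colour giving the rank within the list as a percent of its length (low is strong). Numbered ticks are the 5'-most RefSeq start of each member and small grey ticks all starts used, so HOXA3 stands far from its other starts. HOXA and HOXC hold the most strong peaks, and HOXB is sparse. HOXD has a strong peak at HOXD1 (25.7 to 34.1%) and few peaks between HOXD4 and HOXD10, among them the HOXD-AS2 region (24.8 to 44.5%).

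Of the HOXA genes, HOXA4, a cervical and upper thoracic patterning gene, had the strongest promoter peak. Peak strength is given as the rank by the authors' score within a list, as a percent of the list's length, so that low values are strong. HOXA4 stood at 11.1% in shARID1A rapamycin, 10.9% in shARID1A DMSO, 13.2% in shControl rapamycin and 13.8% in shControl DMSO (chr7:27130141-27131314, GRCh38, over the TSS). These values lie close together, and both shARID1A lists had it slightly stronger than both shControl lists. HOXA5, needed in mouse for lung development, stood at 19.3% in shARID1A rapamycin, 24.4% in shARID1A DMSO, 17.0% in shControl rapamycin and 24.95% in shControl DMSO, stronger in both rapamycin lists. Its peak was 1863 to 1907 bp wide and reached from the TSS into the single intron. HOXA3, needed in mouse for the thymus and parathyroid, stood at 16.8 to 21.8% through its strongest promoter peak (chr7:27150396-27151553), which the authors placed in exon 1 of HOXA-AS3. HOXA10 and HOXA11 pattern the uterus and the limb. HOXA10 stood at 24.5% in shARID1A rapamycin, 42.4% in shARID1A DMSO, 42.1% in shControl rapamycin and 34.9% in shControl DMSO. The shControl rapamycin value is from its inner start, and at the outer start used in the other lists that list had 47.4%. HOXA11 was the weakest HOXA promoter with a peak in every list, at 58.4% in shARID1A rapamycin, 66.0% in shARID1A DMSO, 76.1% in shControl rapamycin and 73.7% in shControl DMSO. HOXA13, which shapes the hand, foot and genital tract, stood at 35.2% in shARID1A rapamycin, 20.9% in shARID1A DMSO, 20.4% in shControl rapamycin and 19.6% in shControl DMSO, so that shARID1A rapamycin was the weak one. The authors named that peak for a noncoding RNA family entry (RF02040) in every list.

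HOXA6, HOXA7 and HOXA9 differed between lists, and all 3 had weak peaks. HOXA6 had a 300 bp peak in shControl DMSO alone, at 87.8%. HOXA7 had a 304 bp peak in shARID1A rapamycin alone, at 70.7%. HOXA9, a gene of blood stem cells that is overexpressed in leukaemia, had a peak at 96.8% in shARID1A rapamycin, 75.2% in shARID1A DMSO and 95.3% in shControl rapamycin, and none in shControl DMSO. HOXA2, which patterns the hindbrain and the second pharyngeal arch, had no promoter peak in any list.

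HOXB held no promoter peak present in every list. HOXB5 had one in both DMSO lists, at 91.2% in shARID1A DMSO and 90.4% in shControl DMSO, and in neither rapamycin list. HOXB9 had one in shControl rapamycin alone, at 77.7%, though the shARID1A DMSO list skipped a number at this place. HOXB1, HOXB2, HOXB3, HOXB4, HOXB6, HOXB7, HOXB8 and HOXB13, which run from the hindbrain gene HOXB1 to the prostate gene HOXB13, had none, with the limit on skipped numbers given above for HOXB1, HOXB2 and HOXB4. The only HOXB peak named for a member in every list lay 2329 to 2428 bp downstream of the HOXB6 start (chr17:48602159-48603047), at 58.0% in shARID1A rapamycin, 47.6% in shARID1A DMSO, 57.9% in shControl rapamycin and 74.1% in shControl DMSO.

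The strongest HOX promoter peak of each shControl list was in HOXC, at the start that RefSeq gives to HOXC4, HOXC5 and HOXC6 together (chr12:54016728-54018389). It stood at 14.7% in shARID1A rapamycin, 11.1% in shARID1A DMSO, 12.2% in shControl rapamycin and 9.21% in shControl DMSO, and was 1553 to 1661 bp wide. HOXC4 also had a peak at the start nearer the 3' end of the cluster that the authors' distances give (chr12:54053290-54054468), at 45.7% in shARID1A rapamycin, 34.8% in shARID1A DMSO, 38.4% in shControl rapamycin and 30.2% in shControl DMSO. The authors named it HOXC4 in both shControl lists and FLJ12825 in both shARID1A lists, so a count by name gives a difference between the lists there that a count by position does not. HOXC9 and HOXC10, which specify motor neuron columns of the trunk and lumbar cord, had peaks of 1780 to 1925 bp and 1658 to 1700 bp. At the start that the authors' distances give, HOXC9 stood at 24.6% in shARID1A rapamycin, 23.8% in shARID1A DMSO, 15.6% in shControl rapamycin and 17.8% in shControl DMSO, weaker in both shARID1A lists. Its RefSeq start lies under a peak named HOXC-AS1 (chr12:53999670-54000837), where the direction was the other way. That peak stood at 40.6% in shARID1A rapamycin, 37.4% in shARID1A DMSO, 55.7% in shControl rapamycin and 41.8% in shControl DMSO. HOXC10, the weakest HOXC promoter with a peak in every list, stood at 31.0% in shARID1A rapamycin, 27.0% in shARID1A DMSO, 22.7% in shControl rapamycin and 25.8% in shControl DMSO. HOXC13, a regulator of hair keratin genes, stood at 16.2 to 24.2%. Its peak was 1582 to 1664 bp wide in 3 lists, and in shARID1A rapamycin it was listed as 2 narrower peaks, 1 of them of 730 bp.

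HOXC8, a thoracic patterning gene, was missing from shARID1A rapamycin only. It stood at 58.8% in shARID1A DMSO, 45.4% in shControl rapamycin and 60.9% in shControl DMSO (chr12:54009095-54009665, in exon 1). HOXC11 and HOXC12 had no promoter peak in any list, so 2 neighbouring members between HOXC10 and HOXC13 lacked one.

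In HOXD the promoters with a peak in every list lay at the ends of the cluster. HOXD1, at the 3' end, stood at 30.5% in shARID1A rapamycin, 34.1% in shARID1A DMSO, 25.7% in shControl rapamycin and 28.0% in shControl DMSO. Its peak of 1523 to 1660 bp was named for HAGLR, the long noncoding RNA read the other way, in every list. HOXD11, a forearm patterning gene, stood at 66.4% in shARID1A rapamycin, 94.9% in shARID1A DMSO, 74.6% in shControl rapamycin and 80.5% in shControl DMSO. HOXD13, the digit gene at the 5' end, had a peak near the upstream RefSeq start (chr2:176087994-176088697) at 77.1% in shARID1A rapamycin, 49.4% in shARID1A DMSO, 59.5% in shControl rapamycin and 87.8% in shControl DMSO. Its centre lay 775 to 939 bp from that start. The authors annotated it as intergenic in every list, and named it EVX2 in 3 lists and HOXD13 in shControl DMSO. A separate weak peak lay 84 to 259 bp downstream of the other HOXD13 start (chr2:176092802-176093298), at 78.7% in shARID1A rapamycin, 94.2% in shARID1A DMSO and 95.4% in shControl rapamycin, and was absent from shControl DMSO. HOXD10 and HOXD12, both limb genes, had a promoter peak in shARID1A rapamycin alone, at 96.6% and 95.9%. The HOXD12 one began just past the end of a wider peak of both DMSO lists. HOXD3, HOXD4, HOXD8 and HOXD9 had none in any list.

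**Figure D3:**
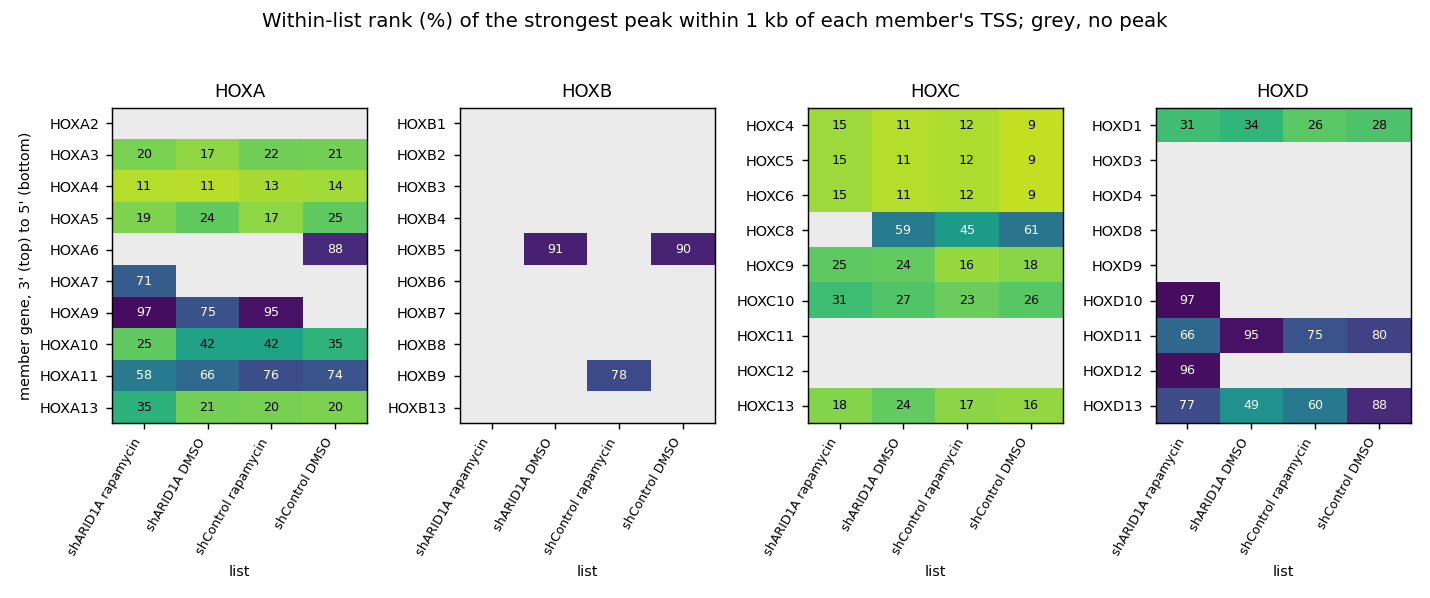
Rank within the list (%, number and colour, low is strong) of the strongest peak within 1 kb of a start of each of the 38 members, with lists as columns and genes as rows from 3' (top) to 5' (bottom). Grey cells are members with no promoter peak in that list; HOXB is nearly all grey, HOXA3 to HOXA5 and HOXC4 to HOXC6 are bright, and single-list peaks such as HOXD10 and HOXD12 in shARID1A rapamycin are dark.

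By paralogue number, 2 of 7 members of groups 1 to 3 had a promoter peak in every list (HOXA3 and HOXD1), 5 of 15 of groups 4 to 8, and 8 of 16 of groups 9 to 13. In groups 4 to 8, HOXC5 and HOXC6 count through the same peak, which HOXC4 shares beside a peak of its own. Genes of 1 paralogue group differed between clusters. In group 13, HOXA13, HOXC13 and HOXD13 had a peak in every list and HOXB13 had none. HOXD13 counts there only through the intergenic peak near its upstream RefSeq start. In group 4, HOXA4 and HOXC4 had a peak in every list and HOXB4 and HOXD4 had none. In group 8, HOXC8 had one in 3 lists and HOXB8 and HOXD8 had none.

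HOX promoter peaks had weaker ranks than promoter peaks over the whole lists. The distinct member promoter peaks had a median rank of 31.0% in shARID1A rapamycin (17 peaks), 30.6% in shARID1A DMSO (16), 24.2% in shControl rapamycin (16) and 26.9% in shControl DMSO (16). Over all promoter peaks the median was 19.3% in shARID1A rapamycin, 19.1% in shARID1A DMSO, 18.9% in shControl rapamycin and 19.2% in shControl DMSO. Promoter peaks carrying a HOX name, a set that leaves out those named for neighbours, had medians of 41.2%, 42.4%, 41.9% and 41.8% in the same libraries. Peaks of at least 1500 bp made up 11.4% of the 44 peaks in the HOX spans in shARID1A rapamycin, 15.2% of 46 in shARID1A DMSO, 16.3% of 43 in shControl rapamycin and 15.0% of 40 in shControl DMSO. Over whole lists such wide peaks were 5.67% in shARID1A rapamycin, 7.30% in shARID1A DMSO, 6.45% in shControl rapamycin and 5.09% in shControl DMSO, and among all promoter peaks 12.8%, 16.0%, 15.2% and 12.2% in the same libraries. The HOX shares are near those of promoter peaks.

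Noncoding transcripts of the clusters shared many of these peaks. Of the HOX peaks, 7 in shARID1A rapamycin, 6 in shARID1A DMSO, 6 in shControl rapamycin and 10 in shControl DMSO were named for an antisense transcript. The nearest-gene name was the same for 61.5 to 96.4% of overlapping HOX peaks in the 6 pairs of lists, against 90.8 to 91.0% of all overlapping peaks. Counts of antisense-named peaks between lists therefore carry that change of name, and the counts of lost, gained and shifted HOX peaks below, which take peaks with a HOX name and match them by position, carry it too. A region named for another gene in the shARID1A list, such as the HOXC4 start (FLJ12825) or the upstream HOXD13 start (EVX2), is not in the knockdown counts of gains and shifts. The counts over members do not have this limit. Merged regions keep a place that some lists name otherwise, but only if at least 1 list gave it a HOX name. HOTAIR, a long noncoding RNA read from the strand opposite to HOXC11, had a peak centred 90 to 222 bp downstream of its start in every list (chr12:53974371-53975290). It stood at 31.1% in shARID1A rapamycin, 68.5% in shARID1A DMSO, 47.6% in shControl rapamycin and 86.0% in shControl DMSO. Both rapamycin lists had it stronger than both DMSO lists.

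MicroRNAs that lie in the clusters are shown because several peaks of the clusters were named for them. Capitals mark the seed, bases 2 to 8, and the sequences are the mature forms of RefSeq GRCh38.p14.
hsa-miR-196a-5p: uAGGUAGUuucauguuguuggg
hsa-miR-196b-5p: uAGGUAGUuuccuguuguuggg
hsa-miR-615-3p: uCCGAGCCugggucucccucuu
The first pair share the seed AGGUAGU and are known to act on HOX messenger RNAs, with miR-196a encoded by MIR196A1 in HOXB and MIR196A2 in HOXC and miR-196b by MIR196B in HOXA. The peak at the inner HOXA10 start (chr7:27173025-27174207) was named MIR196B in shARID1A DMSO and shControl rapamycin and HOXA10 in the other 2 lists. It stood at 33.8% in shARID1A rapamycin, 48.1% in shARID1A DMSO, 42.1% in shControl rapamycin and 41.1% in shControl DMSO. The MIR615 peak (chr12:54032475-54034266), between the HOXC4 and HOXC5 starts, stood at 34.4% in shARID1A rapamycin, 25.7% in shARID1A DMSO, 31.8% in shControl rapamycin and 44.9% in shControl DMSO.

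With ARID1A knockdown in DMSO, more HOX peaks were gained than lost, most of them weak. A gained peak is one of the shARID1A list (below, of the rapamycin list) that shares not even 1 bp with a peak of the list it is set against, and a lost peak is the converse. Of 30 HOX peaks in shARID1A DMSO, 7 were gained (23.3%, exact binomial 95% interval 9.93 to 42.3%), against 17.7% of all peaks. Of 26 HOX peaks in shControl DMSO, 1 was lost (3.85%, interval 0.0973 to 19.6%), against 27.6% of all peaks. The intervals cover counting error only. The lost peak was that of HOXA6. The gained peaks lay at HOXA9 and HOXD13, upstream of HOXC8, HOXB8 and HOXD3, and at 2 places upstream of HOXC12. Among the stronger 50% of the list, the peak upstream of HOXC8 (chr12:54005882-54006256, at 49.9%) was the only one gained, and it stood near the limit of that class. That is 1 of 16 (6.25%, interval 0.158 to 30.2%), against 2.05% of all peaks of that strength. None of 15 was lost (interval 0 to 21.8%), against 4.4% of all. Of the promoter peaks with a HOX name, 2 of 17 were gained (interval 1.46 to 36.4%) and 1 of 17 lost (0.149 to 28.7%), against 6.56% and 5.82% of all promoter peaks. Of distal HOX peaks 5 of 13 were gained (38.5%, interval 13.9 to 68.4%), against 22.1% of all distal peaks, and none of 9 was lost (interval 0 to 33.6%), against 34.9%.

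With knockdown in rapamycin, gains and losses were even. Of 28 HOX peaks in shARID1A rapamycin, 5 were gained (17.9%, interval 6.06 to 36.9%), against 17.9% of all peaks. Of 28 in shControl rapamycin, 5 were lost (17.9%, the same interval), against 26.7% of all. The gained peaks were the promoter peaks of HOXA7, HOXD10 and HOXD12 and peaks upstream of HOXC8 and HOXC12. The lost peaks were the promoter peaks of HOXC8 and HOXB9 and peaks upstream of HOXB8, HOXC12 and HOXD3. The HOXC8 peak (45.4%) and the HOXB8 peak (46.7%) were the only HOX peaks in the stronger 50% that were lost. That is 2 of 16 (12.5%, interval 1.55 to 38.3%), against 4.22% of all peaks of that strength. None of 16 was gained (interval 0 to 20.6%), against 2.37%. Of promoter peaks with a HOX name 3 of 18 were gained (interval 3.58 to 41.4%) and 2 of 18 lost (1.38 to 34.7%), against 5.41% and 6.41% of all promoter peaks. Of distal HOX peaks 2 of 10 were gained and 3 of 10 lost (30%), against 23% and 33.8% of all distal peaks.

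Counted by member, a promoter peak was gained at HOXA9 and lost at HOXA6 with knockdown in DMSO, 1 of 18 members each way (5.56%). Among protein-coding genes 3.79% of promoter peaks were gained and 2.33% lost. These shares rest on RefSeq starts alone, and so do the member counts in this comparison of members with protein-coding genes. The protein-coding starts are those of promoter windows, while members were counted also from the 5' end of the RefSeq gene. For knockdown in rapamycin, promoter peaks were gained at HOXA7 and HOXD10 and lost at HOXB9 and HOXC8. That is 2 of 18 members each way (11.1%), against 2.49% and 3.02% of protein-coding genes. HOXD12 counts as gained too if the authors' start is used. The gained peaks stood at 70.7% (HOXA7) and 96.6% (HOXD10), and the lost ones at 77.7% (HOXB9) and 45.4% (HOXC8).

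In shARID1A cells with rapamycin, 3 of 28 HOX peaks were gained (10.7%, interval 2.27 to 28.2%), against 19.3% of all peaks. There 6 of 30 were lost (20%, interval 7.71 to 38.6%), against 21.2%. The gained ones were again the promoter peaks of HOXA7, HOXD10 and HOXD12, since this comparison shares the shARID1A rapamycin list with the one above. The HOXD12 peak began just past the end of a shARID1A DMSO peak. When peaks up to 200 bp apart were counted as shared, 2 were gained. The lost ones lay at HOXB5 and HOXC8, inside HOXA11, and upstream of HOXB8, HOXC12 and HOXD3. Of promoter peaks with a HOX name 3 of 18 were gained (interval 3.58 to 41.4%) and 2 of 17 lost (1.46 to 36.4%), against 4.51% and 6.5% of all promoter peaks. In the stronger 50% no HOX peak was gained or lost, against 1.34% and 2.03% of all. In shControl cells with rapamycin, 6 of 28 were gained (21.4%, interval 8.30 to 41.0%), against 18.5%. There 2 of 26 were lost (7.69%, interval 0.946 to 25.1%), against 21.7%. The gained ones lay at HOXA9, HOXB9 and HOXD13 and upstream of HOXB8, HOXC12 and HOXD3, and the lost ones were the promoter peaks of HOXA6 and HOXB5. Of promoter peaks with a HOX name 3 of 18 were gained (interval 3.58 to 41.4%) and 2 of 17 lost (1.46 to 36.4%), against 5.72% and 5.81% of all promoter peaks. In the stronger 50% the HOXB8 peak was the only one gained, 1 of 16 (6.25%, interval 0.158 to 30.2%), against 1.72% of all. None of 15 was lost (interval 0 to 21.8%), against 2.56%. By member and RefSeq starts, a promoter peak was gained with rapamycin in shARID1A cells at 2 of 18 (HOXA7 and HOXD10, 11.1%). One was lost at 2 of 18 (HOXB5 and HOXC8), against 1.94% gained and 3.21% lost among protein-coding genes. In shControl cells one was gained at 2 of 18 (HOXA9 and HOXB9) and lost at 2 of 18 (HOXA6 and HOXB5), against 3.25% and 2.53%.

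Comparisons that share no library can be set side by side. Merging all overlapping peaks gave 69838 regions over the 4 lists, of which 37 carried a HOX name in at least 1 list. Of these, 23 were in every list (62.2%), against 45.2% of all regions. A region in more lists had more chances to carry a HOX name. Of the 53 regions in the cluster spans under any name, 33 were in every list. In both shARID1A lists and neither shControl list were 2 HOX regions (5.41%, against 1.81% of all), the one upstream of HOXC8 and the one 1.6 to 1.7 kb upstream of HOXC12 (chr12:53952871-53953333). The HOXC8 one stood at 52.4% in shARID1A rapamycin and 49.9% in shARID1A DMSO, and the HOXC12 one at 75.1% in shARID1A rapamycin and 76.7% in shARID1A DMSO. No HOX region was in both shControl lists and neither shARID1A list, against 5.22% of all. In both DMSO lists and neither rapamycin list was 1, at the HOXB5 start (2.70%, against 1.98% of all). In shControl DMSO that peak stood at rank 47205.5, past the 44760 peaks of the shortest list, so with equal numbers of peaks it is not in both DMSO lists. In both rapamycin lists and neither DMSO list was none, against 1.56%.

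Rank shifts were counted at 10 percentage points or more, as shARID1A minus shControl or rapamycin minus DMSO, so that a negative shift is a stronger peak. With knockdown in DMSO, 3 of 23 shared HOX peaks were weaker (against 28.2% of all shared peaks) and 5 stronger (21.7%, against 12.8%). Ranked among equal numbers of peaks, 1 was weaker and 9 were stronger. The share of all shared peaks under that ranking was not computed, so these counts have no background beside them. With knockdown in rapamycin, 2 of 23 were weaker (8.70%, against 26.7%) and 7 stronger (30.4%, against 13.9%). One of these weaker peaks is the HOXC13-AS fragment of the HOXC13 peak that is split in shARID1A rapamycin, shifted by 29.6 points against the whole peak, while the merged region shifted by 0.98. The median shift of the shared HOX peaks was -2.93 points in DMSO and -2.09 in rapamycin, where that of all shared peaks was 2.21 and 1.93 points. Of these HOX peaks 15 of 23 were promoter peaks in each comparison. Over all shared peaks, promoter peaks were 12210 of 37621 in DMSO and 12129 of 36730 in rapamycin. Among shared promoter peaks alone, the median shift in DMSO was -0.5998 points for HOX and 0.0107 for all. In rapamycin it was -2.09 for HOX and 0.161 for all. Whether the larger promoter share accounts for the contrast with all shared peaks was not tested. With rapamycin in shARID1A cells, 7 of 25 were weaker (28%, against 17.3%) and 5 stronger (20%, against 14.1%). The HOXC13-AS fragment is again 1 of the weaker ones (22.8 points, and -5.77 for the merged region). Among equal numbers of peaks 4 were weaker, again with no share of all shared peaks computed. With rapamycin in shControl cells, 5 of 22 were weaker (22.7%, against 20.7%) and 5 stronger (22.7%, against 15.0%).

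In both knockdown comparisons 3 HOX regions were stronger by that measure, of 23 (against 3.57% of all regions in every list) and 1 was weaker (4.35%, against 13.2%). These shares were not computed for promoter regions alone. The stronger ones were the HOTAIR start with shifts of -17.5 in DMSO and -16.5 in rapamycin, a place in a HOXA3 intron that also holds the 3'-most RefSeq start of HOXA3 (chr7:27113205-27114615) with -24.97 and -17.2, and a region 3.7 to 3.9 kb upstream of HOXD-AS2 (chr2:176140404-176141316) with -13.4 and -16.7. The HOXD-AS2 region stood at 24.8% in shARID1A rapamycin, 31.0% in shARID1A DMSO, 41.5% in shControl rapamycin and 44.5% in shControl DMSO, so both shARID1A lists had it stronger than both shControl lists. The weaker one lay in HOXA at chr7:27120492-27121568, which the authors annotated as the HOXA-AS2 promoter and named HOXA3 in 3 lists. It stood at 48.3% in shARID1A rapamycin, 36.3% in shARID1A DMSO, 28.6% in shControl rapamycin and 17.0% in shControl DMSO, weaker in both shARID1A lists, with knockdown shifts of 19.3 in DMSO and 19.8 in rapamycin.

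With rapamycin, 1 HOX region was stronger in both kinds of cell (4.35%, against 2.63% of all regions) and 3 were weaker (against 4.55%). The stronger one was again HOTAIR, by -37.5 points in shARID1A cells and -38.5 in shControl cells. The weaker ones were the HOXA region named for HOXA-AS2 and HOXA3 above (12.04 and 11.6 points), a HOXA3 intron nearer the 3' end (chr7:27110545-27111595, 10.9 and 14.2 points) and a region 1.8 to 2.2 kb upstream of HOXD12 (chr2:176097052-176098557, 15.6 and 17.6 points). The HOXD12 region stood at 53.9% in shARID1A rapamycin, 38.2% in shARID1A DMSO, 47.3% in shControl rapamycin and 29.6% in shControl DMSO. In shARID1A rapamycin its peak was 494 bp wide, where the other lists had a peak of 1237 to 1334 bp. The separate HOXD12 promoter peak of shARID1A rapamycin (chr2:176098583-176098930) began just past the peak ends of both DMSO lists. Those ends were at 176098557 in shControl DMSO and 176098555 in shARID1A DMSO.

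**Figure D4:**
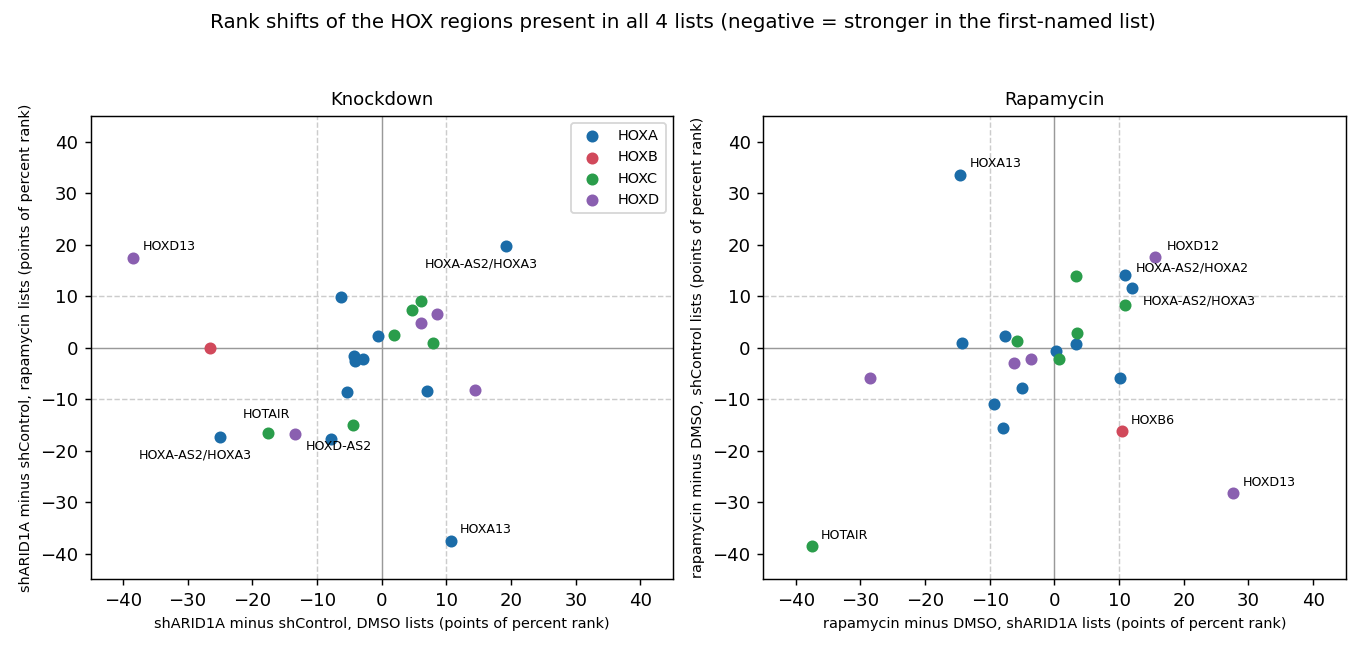
Rank shifts (points of percent rank, shARID1A minus shControl or rapamycin minus DMSO, negative is stronger) of the 23 HOX regions present in every list, with knockdown in DMSO against knockdown in rapamycin on the left and rapamycin in shARID1A against rapamycin in shControl on the right; dashed lines mark 10 points and labels the regions past them on both axes. HOTAIR lies at -37.5 and -38.5 in the rapamycin plot, and the HOXD13 region and the HOXA13 exon 1 region lie in the corners of opposite sign in both plots.

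Taking each member's strongest promoter peak, no member had a shift of 10 points or more in the same direction in both knockdown comparisons or in both rapamycin comparisons, among the 15 members with a promoter peak in every list. With knockdown in DMSO, 1 of 17 was weaker (HOXD11) and 1 stronger (HOXD13), against 7.72% and 10.4% of all shared promoter peaks. With knockdown in rapamycin, HOXA13 and HOXD13 were weaker and HOXA10 and HOXA11 stronger, of 16, against 9.38% and 9.29%. With rapamycin in shARID1A cells, HOXA9, HOXA13 and HOXD13 were weaker and HOXA10 and HOXD11 stronger, of 16, against 9.09% and 6.14%. With rapamycin in shControl cells none was weaker and HOXC8 and HOXD13 were stronger, of 16, against 9.31% and 9.92%. That count depends on the start taken for HOXA10, whose strongest peak in shControl rapamycin (42.1%) is at the inner start. At the outer start HOXA10 stood at 47.4% in shControl rapamycin and 34.9% in shControl DMSO, so there it was weaker by more than 10 points. The median size of a member's shift was 2.93 points, 3.66, 4.51 and 2.96 in the comparisons in the order given. HOXC4, HOXC5 and HOXC6 enter these medians with the same shift, that of their shared peak. Counted instead over the 15 shared promoter peaks with a HOX name, antisense names included, 5 were stronger and 1 (the HOXC13-AS fragment) weaker with knockdown in rapamycin and 1 stronger and 2 weaker with knockdown in DMSO. With rapamycin 5 were stronger and 2 weaker in shARID1A cells, and 3 stronger and 2 weaker in shControl cells. The strongest promoters, HOXA4 and the shared HOXC start, moved by less than 4 points in each.

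Genes that act with or on HOX genes were described from lists. Among cofactors of the TALE class, with which HOX proteins bind DNA, PBX2, MEIS1, PKNOX1 and PKNOX2 had a promoter peak in every list, and PBX3 and MEIS3 had one in none. Of 13 Polycomb genes, 11 in shARID1A rapamycin and 12 in each other list had one, EZH2, EED and SUZ12 in all. CBX2 lacked one in shARID1A rapamycin alone, and PCGF2 in every list. Of 12 activators of HOX genes, 11 in shARID1A rapamycin, 12 in shARID1A DMSO, 12 in shControl rapamycin and 11 in shControl DMSO had one, KMT2A and MEN1 in all. EVX1 and EVX2, the homeobox genes that border HOXA and HOXD, had none in any list. Of 6 ParaHox genes, relatives of the HOX genes outside the clusters, CDX2, PDX1 and GSX2 had one in all and CDX1, CDX4 and GSX1 in none.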

How the data were processed

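ATAC-seq libraries of 4 groups, 1 library each, were processed with tools listed as BWA and MACS2 2.0, and the build listed is GRCh38 (hg38), per the submitters' processing notes. For settings, any shift of reads for the transposase, duplicates and depth, the sources used here give nothing. Each list belongs to 1 library, per the labels. Per the file headers, each line holds a peak number, coordinates, a score, an annotation, the nearest gene and the distance to its TSS in bp. The score is a value deposited by the authors on an unstated scale, so scores served here for ranking inside 1 list and for nothing across lists. The distance and the nearest gene are the authors' too, and differ between lists for the same place.

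From these, ranks were computed (SciPy 1.17.1, NumPy 2.4.6 and pandas 2.3.3 under Python 3.11.15, with matplotlib 3.10.9 for figures) as a percent of list length, with ties given their mean rank. Member TSS came from RefSeq GRCh38.p14 and from the authors' distances, and a promoter lay within 1 kb. Overlap of 1 bp made a peak shared. Shares have exact (Clopper-Pearson) 95% binomial intervals. Overlap, merging and ranking were checked on simulated peaks. Named members were those whose promoter peak differed between lists, the strongest and weakest of a cluster, those whose peaks changed in the same direction in both comparisons of a kind, and peaks lost or gained in the stronger 50%; members with no peak are listed. Other members with a peak in every list, and noncoding or other regions with shifts in both comparisons, were named after their values were seen. Members and lists were chosen with earlier results of these data known. With 1 library per group no replicated test was run, and HOX genes outside the 38 are not reported here.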

Additional observations from a re-analysis of the deposited data

Results flagged for a closer look

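Regions whose rank moved by at least 10 points in opposite directions in comparisons of the same kind are given here; with 1 library per group the difference between the comparisons was not tested, and over all regions in every list 4.67% did so for knockdown and 5.85% for rapamycin. The region near the upstream HOXD13 start shifted by -38.4 points with knockdown in DMSO and by 17.5 with knockdown in rapamycin. With rapamycin the same region shifted by 27.6 in shARID1A cells and by -28.3 in shControl cells. The region in HOXA13 exon 1 (chr7:27198753-27199571) shifted by 10.7 with knockdown in DMSO and by -37.5 with knockdown in rapamycin, and with rapamycin by -14.5 in shARID1A cells and by 33.6 in shControl cells. It stood at 41.7% in shARID1A rapamycin, 56.3% in shARID1A DMSO, 79.2% in shControl rapamycin and 45.6% in shControl DMSO. The HOXB6 region shifted by 10.4 with rapamycin in shARID1A cells and by -16.2 in shControl cells. The knockdown and rapamycin shifts of a region come from the same 4 values.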

How the results depend on the processing

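Of 116 alternative values for 28 results, 79 stayed within 1.5 times the value given (medians within the 95% interval of the median) and 37 did not. For members with a promoter peak, the value set against the alternatives was the count by name, not the count by position. These results are counts and medians without a sign, so a change of direction was not assessed. No paired analysis was possible because each group is 1 library and no replicate numbers pair samples; an additive fit over knockdown and rapamycin was not run. Counting peaks by position in the clusters gave 44 in shARID1A rapamycin, 46 in shARID1A DMSO, 43 in shControl rapamycin and 40 in shControl DMSO. The stronger 50% of each list held 16, 16, 16 and 15 HOX peaks, and without antisense names shControl DMSO held 16. By name, the members with a promoter peak within 0.5 kb were 8 in shARID1A rapamycin and 8 in shControl rapamycin. In the stronger 50% they were 7 in shARID1A rapamycin, 5 in shARID1A DMSO and 7 in shControl rapamycin. By position, the members with a peak within 0.5 kb were 12 in shARID1A rapamycin and 13 in shARID1A DMSO. They were 11 in shControl rapamycin and 13 in shControl DMSO. The share of close to 1 in 2 members therefore holds for the 1 kb width. No share of protein-coding genes was computed at 0.5 kb.

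In the stronger 50%, HOX peaks gained and lost were 1 and 0 with knockdown in DMSO, 0 and 2 with knockdown in rapamycin, 0 and 0 with rapamycin in shARID1A, and 1 and 0 with rapamycin in shControl. With equal numbers of top-ranked peaks (44760), none was lost with knockdown in DMSO or with rapamycin in shControl. The lost HOXA6 and HOXB5 peaks stood at ranks 45810 and 47205.5 of shControl DMSO. Ranked among promoter peaks alone, HOX promoter peaks had medians of 75.4% in shARID1A rapamycin, 76.3% in shARID1A DMSO, 75.4% in shControl rapamycin and 74.8% in shControl DMSO.

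With a limit of 20 points, shared peaks weaker and stronger were 0 and 3 with knockdown in DMSO, 1 and 1 with knockdown in rapamycin, 2 and 2 with rapamycin in shARID1A, and 1 and 1 with rapamycin in shControl. The HOXC13-AS fragment of a split peak is the weaker one with knockdown in rapamycin and 1 of those weaker with rapamycin in shARID1A. Ranked among equal numbers of peaks, 1 was weaker and 9 stronger with knockdown in DMSO, and 4 were weaker with rapamycin in shARID1A. Under that ranking the share over all shared peaks was not computed. Alternatives using RefSeq starts alone, or every peak with 0.5 kb or the stronger 50%, were chosen after seeing the data. Depth is unknown, so a peak that is not listed was not detected at that depth, which is not the same as absent.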
